A study of Mus musculus with 3 samples.

Results

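The T cell receptor beta variable (Trbv) genes were examined by stage of thymocyte development. The members are all rows whose symbol is Trbv followed by a digit, 35 of the 32285 genes counted. The annotation lists 22 of them as V genes and 13 as V pseudogenes. RNA of single thymus cells had been sequenced from female mice, 4 weeks old, that differed in germline p53, a transcription factor of the DNA damage response whose gene is Trp53. The genotypes were p53+/-, p53 AD/- and p53-/- with 1 library each, so they are set side by side without a test, and values are given in that order throughout. What the AD allele changes is not stated in the labels, although the title speaks of p53 dimers. The first group is labelled p53+/- and called WT in the design text. In all 3 libraries at least 1 copy of p53 is missing or altered, and the strain labels mix BALB/C with C57BL6, C57BL7 and C57BL8 in library order. The rising last digit may be a slip in the labels, so whether the libraries differ in strain is not known.

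A T cell receptor beta chain is assembled in the thymus when the RAG recombinase joins 1 V gene to a D and a J segment, and splicing then attaches the constant region Trbc1 or Trbc2. Each V gene therefore marks the cells that carry its family of receptors, and the 3′ end of the V gene, which encodes the conserved cysteine before the junction, stays in the transcript. Mouse strains that carry endogenous mammary tumour viruses and I-E, an MHC class II molecule, are known to lose mature T cells of some V beta families, because viral superantigens bind the V beta face of the receptor whatever the antigen; BALB/c carries such viruses. The superantigen-family list used here holds Trbv12-1, Trbv12-2, Trbv15, Trbv16 and Trbv26.

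The ends of 11 members named in the results are shown. The counts were made per gene and did not use these runs of bases. Each run is the last 75 bases of the V segment in the GENCODE M21 transcript on build GRCm38, chromosome 6, plus strand, with the codon of the conserved cysteine in capitals. The first 5 are the superantigen-family list and the sixth is Trbv3.
Trbv12-1: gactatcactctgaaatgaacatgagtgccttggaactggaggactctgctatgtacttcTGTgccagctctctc
Trbv12-2: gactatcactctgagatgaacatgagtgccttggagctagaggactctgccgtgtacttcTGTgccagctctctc
Trbv15: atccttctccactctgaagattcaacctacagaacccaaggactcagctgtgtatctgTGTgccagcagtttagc
Trbv16: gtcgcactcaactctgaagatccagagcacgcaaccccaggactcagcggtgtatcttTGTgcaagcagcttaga
Trbv26: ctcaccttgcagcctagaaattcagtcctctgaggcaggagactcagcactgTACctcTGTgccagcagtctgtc
Trbv3: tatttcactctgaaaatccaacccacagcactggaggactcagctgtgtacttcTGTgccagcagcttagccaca
Trbv2: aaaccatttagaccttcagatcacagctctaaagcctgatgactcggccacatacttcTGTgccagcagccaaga
Trbv13-1: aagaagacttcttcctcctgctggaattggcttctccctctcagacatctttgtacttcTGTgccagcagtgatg
Trbv13-2: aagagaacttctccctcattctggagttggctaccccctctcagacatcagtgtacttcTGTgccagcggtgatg
Trbv19: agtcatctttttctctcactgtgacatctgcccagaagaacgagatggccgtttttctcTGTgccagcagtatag
Trbv24: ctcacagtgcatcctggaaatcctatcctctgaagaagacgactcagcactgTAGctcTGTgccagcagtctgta
In Trbv26 and Trbv24 the codon 2 before the cysteine is also in capitals. It reads TAC in Trbv26 and the stop codon TAG in Trbv24, which the annotation lists as a pseudogene. The difference is C55G, counted from 1 at the first base printed, with the base of Trbv26 first. Over whole V segments, 210 pairs among the 21 members with at least 100 UMIs had a median identity of 57.9%. In 4 pairs it was over 80%, and these were Trbv13-2 with Trbv13-3 (90.6%), Trbv13-1 with Trbv13-2 (88.7%), Trbv12-1 with Trbv12-2 (88.3%) and Trbv13-1 with Trbv13-3 (86.1%). How reads shared by such copies were counted is not stated, so the split within these 2 families is uncertain.

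The libraries held 46498800, 27638820 and 54164425 unique molecular identifiers (UMIs, which mark single RNA molecules) in 8880, 6308 and 9889 barcodes. Cells with at least 500 genes and under 10% mitochondrial UMIs numbered 8150, 6171 and 9543. Cycling cells (Mki67 and Top2a summing to at least 3 UMIs) numbered 1114, 764 and 1830. Resting cells (at least 1 Rag1 UMI, not cycling) numbered 5017, 3541 and 5373. Mature cells (no Rag1, at least 2 UMIs summed over a short list of maturation genes that includes Klf2, Ccr7 and S1pr1) with Cd4 only numbered 125, 82 and 189, and those with Cd8a or Cd8b1 only numbered 200, 192 and 274. Of genes that the rule did not use, the Cd4-lineage genes Zbtb7b and Cd40lg summed to 106, 94.9 and 116 CPM (counts scaled to a fixed total of UMIs per sum) in mature Cd4 cells and to 17.1, 26.3 and 17.5 in mature Cd8 cells. The Cd8-lineage genes Runx3 and Nkg7 summed to 522, 424 and 451 CPM in mature Cd8 cells and to 106, 65.2 and 45.4 in mature Cd4 cells. Doublets were not called, and 65 barcodes occurred in more than 1 library.

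In resting cells the members' shares of Trbv UMIs were strongly uneven, and they followed a like order in the 3 libraries. Whether RNA of all members was captured equally well was not tested, so these are shares of UMIs and not of rearranged genes. Trbv2 held 18.1%, 15.4% and 20.3% of all Trbv UMIs, the highest share in each library. Trbv13-2 followed with 11.2%, 10.3% and 8.73%. Trbv19 held 7.50%, 8.25% and 7.03%. Trbv12-2 held 6.20%, 8.10% and 5.42%, and Trbv13-1 held 5.90%, 5.24% and 6.08%. Divided by the length of the annotated exons, Trbv2 still led with 32.0% per kb, Trbv13-2 came second with 29.6% per kb, and Trbv19 dropped from rank 3 to rank 6. The members at the ends of the locus, which spans 667 kb (GRCm38, chromosome 6, 40891229 to 41558452), were neither highest nor lowest. Trbv1, the most upstream, held 4.24%, 4.95% and 3.50%. Trbv31, which lies inverted beyond the constant regions, held 5.26%, 6.11% and 5.42%.

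**Figure D1:**
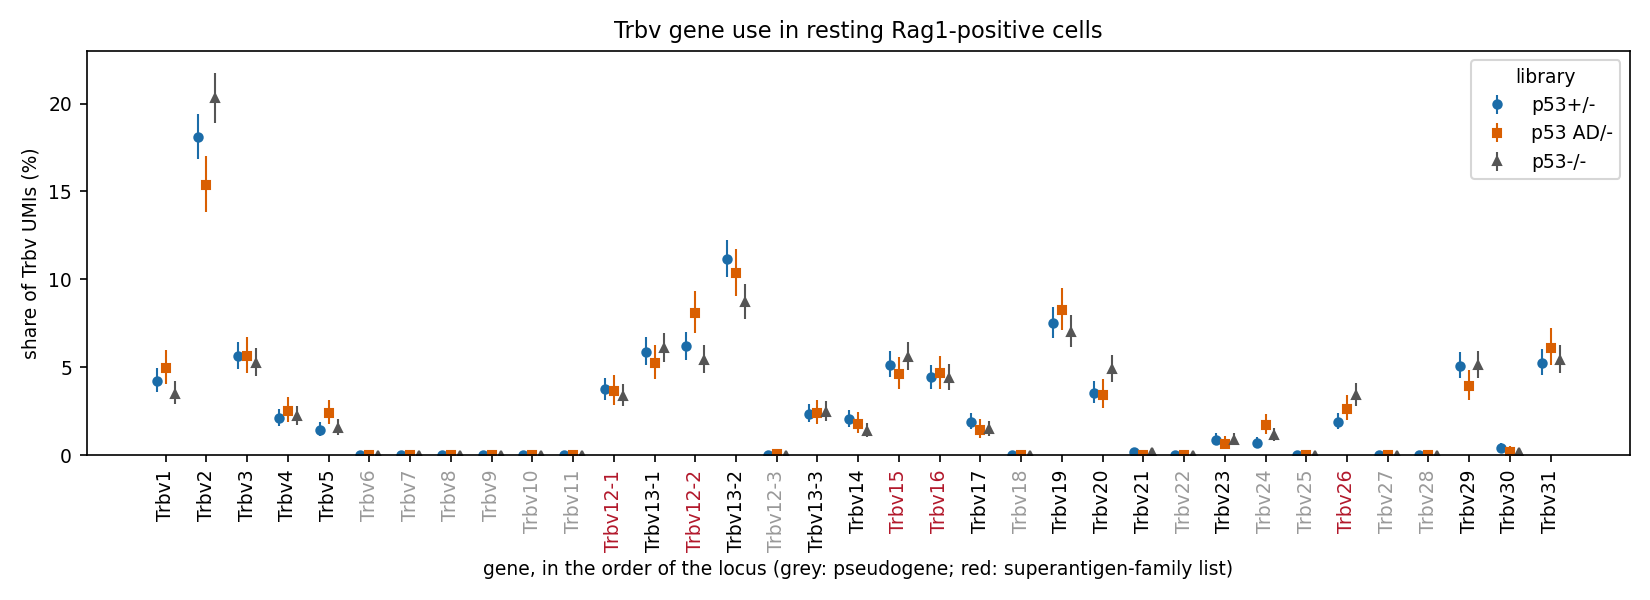
Share of Trbv UMIs in percent (vertical axis) of the 35 members in the order of the locus in resting cells, 1 point per library with its exact 95% interval for counting error. Trbv2 is highest in all 3 libraries at 15.4% to 20.3%, and of the pseudogenes (grey names) Trbv24 alone rises visibly above 0.

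Many other members were low or undetected. A mean resting share of at least 1% was reached by 20 members. Over all kept cells 6 members had between 1 and 19 UMIs, and 6, all of them pseudogenes, had none. Trbv24 was the exception among pseudogenes, with 0.72%, 1.70% and 1.13% of Trbv UMIs in resting cells. In mature Cd4 cells it had no UMI among 297 Trbv UMIs, where a count of 0 allows a share of up to 1.01%. That bound lies above the p53+/- resting share, so the count of 0 does not settle whether the share was lower. In mature Cd8 cells Trbv24 had 1, 0 and 1 UMIs. The annotated stop in Trbv24 is the TAG codon shown above.

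The share of cells with a Trbv UMI depended on depth, and at equal depth it was highest in resting cells. Unthinned, 68.8%, 63.1% and 66.4% of cycling cells had a Trbv UMI, against 44.8%, 39.6% and 39.1% of resting cells. Median depth was 13491, 11500 and 11598.5 UMIs in cycling cells and 2822, 2067 and 2407 in resting cells. With every cell thinned to 1500 UMIs the order turned: the expected share was 16.5%, 16.3% and 16.4% of cycling cells and 27.2%, 29.4% and 25.5% of resting cells, with 133, 491 and 330 shallower resting cells left out. Thinned mature Cd4 cells lay between them with 20.9%, 16.9% and 14.3%, although the p53-/- value was below that of cycling cells. Thinned mature Cd8 cells had 17.5%, 13.0% and 12.2%. Non-T cells were chosen by at least 5 UMIs of non-T markers and no UMI of Cd3d, Cd3e and Cd3g, which selects against T cell RNA. With median depths of 8554, 8476 and 6177.5, they had a Trbv UMI in 2.70%, 1.96% and 2.33% of cells. After thinning it was 0.13%, 0.48% and 0.68%. Without the Cd3 rule, cells with such markers had a Trbv UMI in 37.5%, 19.1% and 27.0%, and after thinning in 8.16%, 4.95% and 5.66%.

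**Figure D2:**
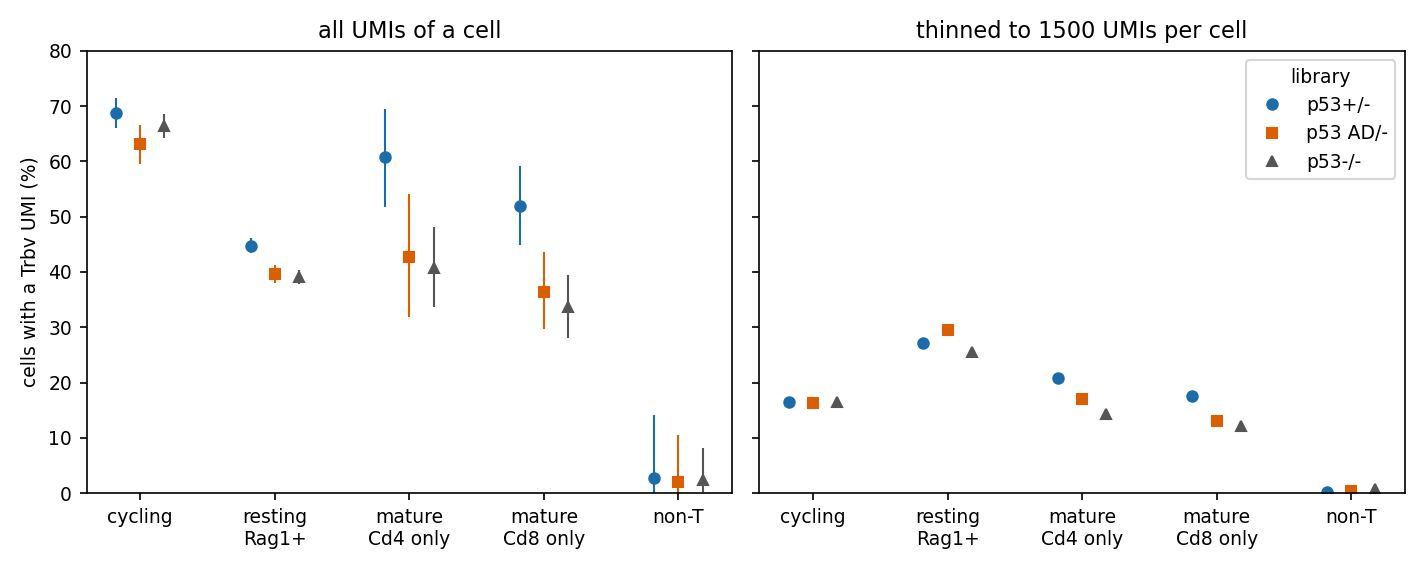
Percent of cells with at least 1 Trbv UMI (vertical axis) by stage and library, from all UMIs on the left with exact 95% intervals and as the expected value at 1500 UMIs per cell on the right. Resting cells move from below cycling cells on the left to the highest position on the right (25.5% to 29.4%). Non-T cells, chosen to have no UMI of Cd3d, Cd3e and Cd3g, stay below 3%.

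Summed over members, Trbv levels were 104, 102 and 106 CPM in cycling cells and 216, 224 and 195 in resting cells. Every resting value was above every cycling value. Counts were then tested over the 12 sums of 3 libraries and 4 stages with edgeR's quasi-likelihood test, the library as a block and Benjamini-Hochberg adjustment over 12085 genes. Of the 35 members, 19 passed the filter on low counts and 16 did not. Of the 19, 11 rose from cycling to resting cells and none fell, while over all genes 33.4% rose and 30.2% fell. The median log2 fold change was 0.70 over the tested members and 0.10 over all genes. Trbv31 rose by 0.99 ± 0.22 (log2, SE, adjusted p by edgeR = 0.0011), Trbv13-2 by 0.88 ± 0.16 (0.00020) and Trbv2 by 0.69 ± 0.12 (0.00021). Trbv15, Trbv12-2, Trbv20, Trbv13-1, Trbv19, Trbv16, Trbv29 and Trbv3 rose by between 0.47 and 0.82, each higher in 3 of 3 libraries. The call held in 8 of 20 alternatives for Trbv3, 11 for Trbv29, 14 for Trbv16, 15 for Trbv12-2 and Trbv19, and 16 to 19 for the other 6 members. The number of members called fell to 4 when the p53+/- or the p53-/- library was left out. It fell to 0 when library sizes were set to the summed Trbv UMIs, which compares members with one another. The share of all genes called in these fits is not given here.

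The share of Trbv2, the highest by UMIs, depended on how it was counted. In cycling cells it held 18.6%, 13.4% and 20.05% of Trbv UMIs. Among cycling cells with a single detected Trbv gene, it was the gene in 9.69%, 7.08% and 9.51%. The share was lower by cells than by UMIs in all 3 libraries, and in resting cells as well, where it was the single gene in 13.3%, 13.6% and 15.5% of cells.

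The superantigen-family list took a smaller share of Trbv UMIs in mature cells than in immature ones. Its 5 members together held 22.7%, 25.9% and 24.9% in cycling cells and 21.4%, 23.6% and 22.2% in resting cells. In mature Cd4 cells they held 9.09%, 10% and 8.62%, and in mature Cd8 cells 13.5%, 13.0% and 16.3%. Neither mature stage overlapped the resting or cycling values. Strongly signalled cells, chosen by Nr4a1, Bcl2l11, Ikzf2 and Pdcd1, held 25.0%, 27.6% and 23.5%. Their rule did not use Rag1, so a cell can be counted both there and among resting cells. Over the counting choices tried, the mature Cd4 share was below the resting share in 41 of 42 values, the mature Cd8 share was below it in 42 of 42, and the mature Cd4 share was below the mature Cd8 share in 38 of 42. The 1 exception to the first lay in the p53 AD/- library, among cells with a single Trbv gene and at least 2 of its UMIs, where the list held 16.7% of 12 mature Cd4 cells and 11.2% of resting cells. The 42 values are recounts of the same 3 libraries under 14 settings, so they are not independent. The list was chosen with earlier results of these data known. No test was run on these shares, and the members are tested singly below. I-E itself was not measured: H2-Ea is not among the counted genes.

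**Figure D3:**
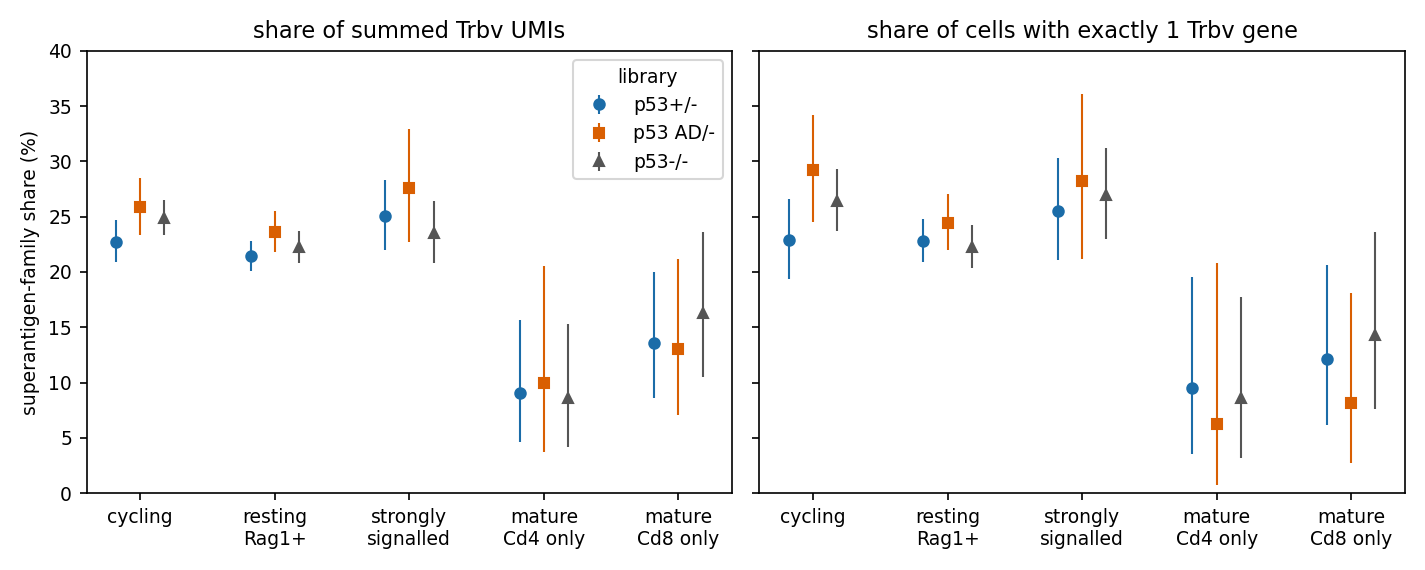
Percent held by the superantigen-family list (vertical axis) by stage and library, as a share of Trbv UMIs on the left and of cells with exactly 1 Trbv gene on the right, with exact 95% intervals. The 3 mature Cd4 points on the left sit between 8.62% and 10%, below all cycling, resting and strongly signalled points.

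Within the list the members were not alike in mature Cd4 cells. Trbv15 had no UMI among 121, 60 and 116 Trbv UMIs, against 187 of 3629, 95 of 2061 and 178 of 3174 in resting cells, shares of 5.15%, 4.61% and 5.61%. With the floor of 3 UMIs over the group, its share was at least 5.14-fold lower and its level at least 9.10-fold lower (adjusted p by edgeR = 0.00011). Trbv16 held 0%, 3.33% and 1.72% in mature Cd4 cells against 4.44%, 4.66% and 4.41% in resting cells. It fell by 2.31 ± 0.59 on the log2 scale (adjusted p by edgeR = 0.0070). Trbv26 held 0.83%, 0% and 0.86% against 1.90%, 2.62% and 3.40%, and it fell by 2.65 ± 0.69 (adjusted p by edgeR = 0.0082). Each of these members was lower in every library. Trbv16 and Trbv26 were no longer called without the p53-/- library, with adjusted p by edgeR of 0.057 and 0.13. Trbv16 also lost the call with the coreceptor at 2 UMIs (adjusted p by edgeR = 0.086) and without cells of over 1 Trbv gene (0.064).

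The paired genes Trbv12-1 and Trbv12-2 differed less between resting and mature Cd4 cells. Trbv12-1 held 1.65%, 5% and 0.86% in mature Cd4 cells against 3.75%, 3.64% and 3.37% in resting cells, so its groups overlapped in share. Its level fell by 1.39 ± 0.52 on the log2 scale, at the threshold (adjusted p by edgeR = 0.0498), and it lost the call in 11 of 20 alternatives, among them those without the p53+/- or the p53-/- library. Trbv12-2 held 6.61%, 1.67% and 5.17% against 6.20%, 8.10% and 5.42%. Its log2 fold change of -0.91 ± 0.39 did not pass (adjusted p by edgeR = 0.083).

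Outside the list, Trbv3 was the other member called lower in mature Cd4 cells. It held 2.48%, 0% and 0.86% of their Trbv UMIs, from 3, 0 and 1 UMIs, against 5.62%, 5.63% and 5.26% in resting cells. It fell by 2.61 ± 0.49 on the log2 scale (adjusted p by edgeR = 0.00086), and the call held in 20 of 20 alternatives. In all, 5 of 19 tested members fell and none rose, where 18.4% of all genes fell and 17.4% rose. The median log2 fold change was -2.31 over the list, -0.56 over the other 14 members and -0.06 over all genes. With Trbv15 set at its bound of -3.19 it was still the lowest of the list, so the list's median necessarily stayed at -2.31.

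Among the members with the highest shares in resting cells, Trbv2, Trbv19 and Trbv13-1 were also high in mature Cd4 cells in each library. Trbv2 held 21.5%, 33.3% and 21.6%, and Trbv19 held 13.2%, 11.7% and 14.7%, above its resting share in each library. Trbv13-1 held 11.6%, 8.33% and 7.76%. The log2 fold changes in level of these 3 members were -0.19 ± 0.20, 0.25 ± 0.24 and 0.11 ± 0.29, none past the threshold (adjusted p by edgeR of 0.51, 0.48 and 0.80). Trbv13-2, the second in resting cells, held 9.09%, 3.33% and 12.1%, with a log2 fold change of -0.75 ± 0.29 that did not pass (adjusted p by edgeR = 0.061). Trbv12-2, also among the highest in resting cells, had a mean share of 6.57% there and 4.48% in mature Cd4 cells. With library sizes set to the summed Trbv UMIs, an alternative chosen after the data were seen, Trbv3, Trbv15, Trbv16 and Trbv26 remained lower and Trbv19 was called higher by 0.84 (log2, adjusted p by edgeR = 0.019). The summed Trbv level itself was 145, 119 and 99.3 CPM in mature Cd4 cells, below every resting value.

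**Figure D4:**
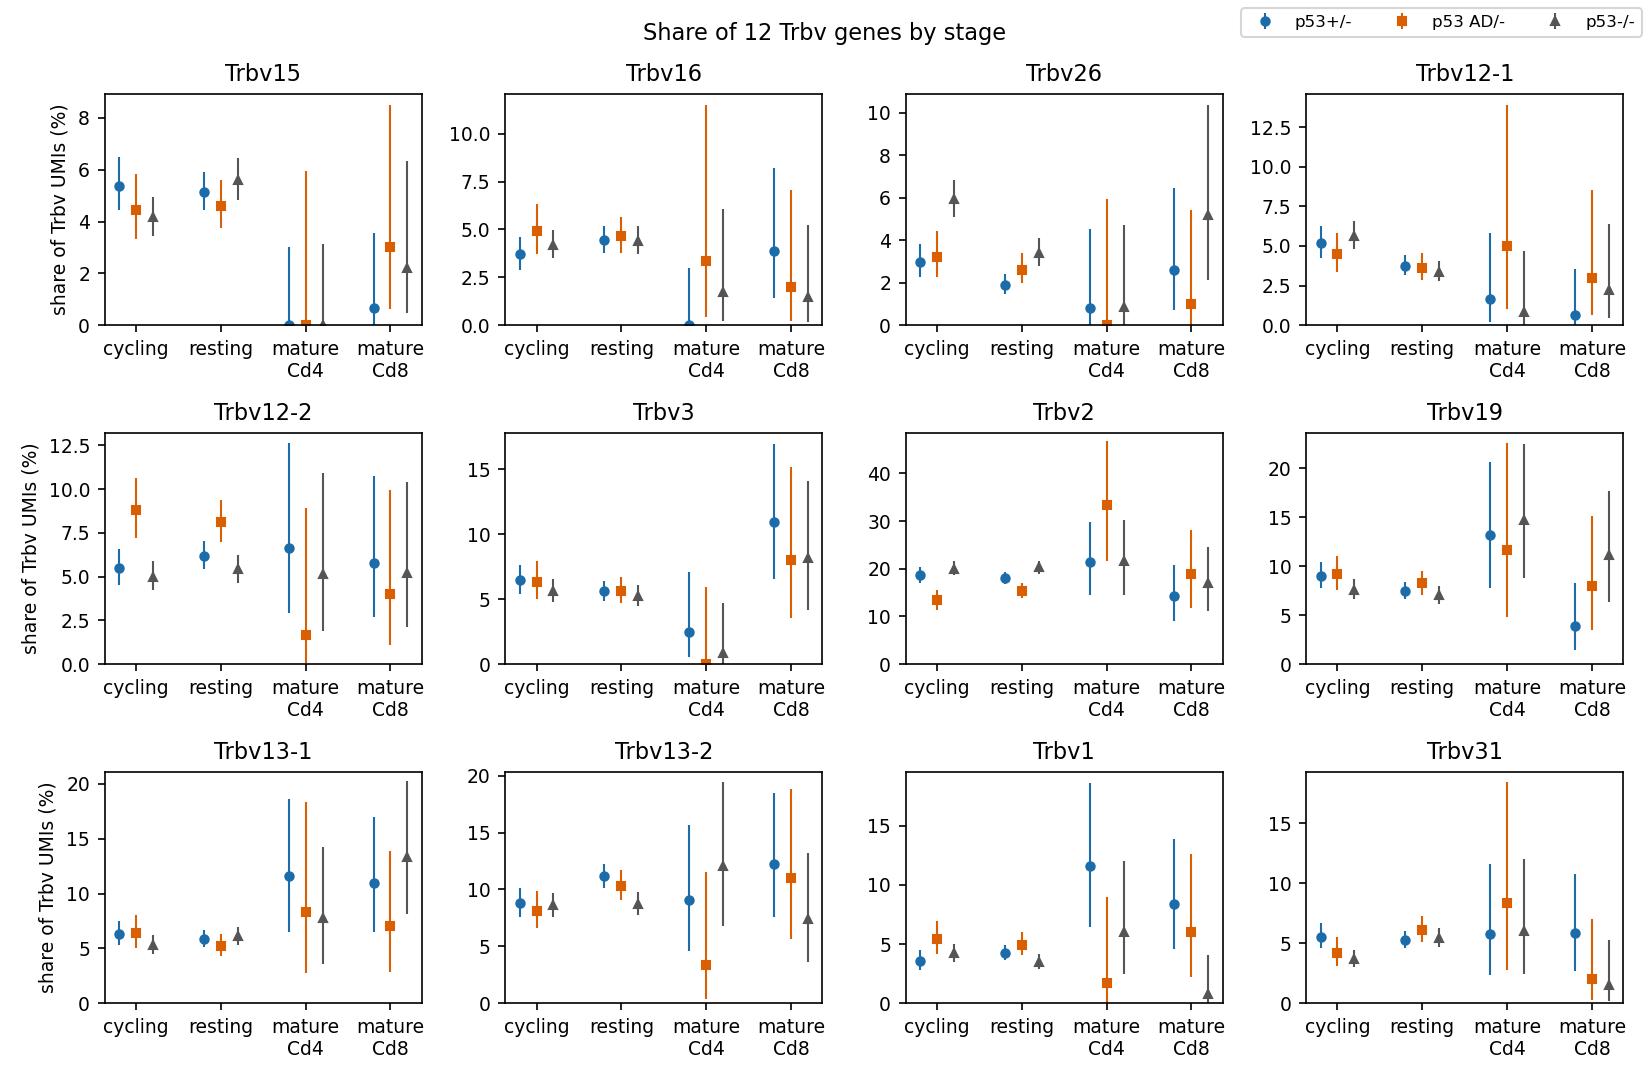
Share of Trbv UMIs in percent (vertical axes, each from 0) of 12 members in cycling, resting, mature Cd4 and mature Cd8 cells, 1 point per library with exact 95% intervals. Trbv15 stands at 0 in all 3 mature Cd4 samples, while Trbv3 is at 0% to 2.48% in mature Cd4 cells and at 8% to 10.97% in mature Cd8 cells.

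In mature Cd8 cells members inside and outside the list were lower than in resting cells. Of 19 tested members 10 fell and none rose, where 22.3% of all genes fell and 23.5% rose. Trbv15 held 0.65%, 3% and 2.22%, and fell by 2.53 ± 0.40 on the log2 scale (adjusted p by edgeR = 0.00028). Trbv12-1 fell by 2.01 ± 0.47 (adjusted p by edgeR = 0.0030), Trbv16 by 1.83 ± 0.44 (0.0037) and Trbv12-2 by 1.35 ± 0.34 (0.0050). Trbv26, at 2.58%, 1% and 5.19%, had a log2 fold change of -0.86 ± 0.42 that did not pass (adjusted p by edgeR = 0.11). The other 6 called were Trbv5, Trbv31, Trbv20, Trbv2, Trbv19 and Trbv13-2, with log2 fold changes from -3.73 to -1.002. Trbv5 had 1, 0 and 0 UMIs in mature Cd8 cells. Of the 10, Trbv12-1 and Trbv19 lost the call without the p53+/- library (adjusted p by edgeR of 0.079 and 0.10), Trbv5 and Trbv20 without the p53 AD/- library (0.051 and 0.088), and Trbv16 and Trbv20 without the p53-/- library (0.055 and 0.13). The median log2 fold change was -1.83 over the list, -0.997 over the other 14 members and -0.02 over all genes. Summed Trbv levels were 102, 82.2 and 76.2 CPM. Relative to the summed Trbv UMIs, Trbv15 and Trbv5 alone were called lower, and Trbv13-1 (0.89) and Trbv3 (0.73) were called higher on the log2 scale.

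Non-T marker genes were higher in the mature Cd8 sums, and their part in these results was not tested beyond leaving out cells. The 16 non-T markers summed to 2558, 2662 and 3166 CPM in mature Cd8 cells, to 223, 2553 and 453 in mature Cd4 cells and to 586, 481 and 1011 in resting cells. Of the 16, 14, 15 and 16 were detected in mature Cd8 cells and 12, 8 and 14 in mature Cd4 cells. The B cell marker Ms4a1 had no UMI in p53+/- cells of either mature stage, and Lyz2, a myeloid gene, gave 1232 UMIs in the mature Cd4 cells of p53 AD/-. Among others at 0 were Col1a1 and Siglech in mature Cd4 cells of p53+/- and p53 AD/-, Siglech in mature Cd8 cells of p53 AD/-, Col3a1 and Hba-a1 in mature Cd4 cells of p53 AD/- and p53-/-, and Cd79b, Hbb-bs and S100a9 in mature Cd4 cells of p53 AD/-. Cells with at least 5 such UMIs numbered 7, 9 and 16 among mature Cd8 cells and 2, 3 and 8 among mature Cd4 cells.

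Trbv3 had a higher share in mature Cd8 than in mature Cd4 cells in each library. It held 10.97%, 8% and 8.15% of Trbv UMIs in mature Cd8 cells, from 17, 8 and 11 UMIs, and 2.48%, 0% and 0.86% in mature Cd4 cells. Resting cells lay between, and the 3 groups of values did not overlap. The log2 fold change of mature Cd8 over mature Cd4 cells was 2.32 ± 0.56, higher in 3 of 3 libraries, and missed the threshold (adjusted p by edgeR = 0.054). Over the alternatives the adjusted p by edgeR or DESeq2 ranged from 0.0050 to 0.33. It was under the threshold in 4 of 20 alternatives. Of these, the one without cells that held non-T marker UMIs (0.020) and the one at 0.0050 were chosen after the data were seen. With the p53+/-, p53 AD/- or p53-/- library left out, the adjusted p by edgeR was 0.16, 0.12 and 0.33. No member was called between the mature lineages by edgeR, which called 1.37% of all genes higher and 0.629% lower. DESeq2 called 2 members lower, and its share over all genes is not given here. Trbv19 and Trbv2 had log2 fold changes of -1.30 ± 0.33 and -0.97 ± 0.27 (adjusted p by edgeR of 0.064 and 0.086). Trbv15 had no UMI in mature Cd4 cells and 1, 3 and 3 UMIs in mature Cd8 cells. With summed Trbv UMIs as library size, chosen after the data were seen, Trbv15 was called higher beside Trbv3 (adjusted p by edgeR = 0.045).

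The members at the ends of the locus varied among libraries in mature cells. Trbv1 held 11.6%, 1.67% and 6.03% in mature Cd4 cells and 8.39%, 6% and 0.74% in mature Cd8 cells, from 1 to 14 UMIs, and it was called in no contrast. Trbv31 held 5.79%, 8.33% and 6.03% in mature Cd4 cells and 5.81%, 2% and 1.48% in mature Cd8 cells. It fell by 1.79 ± 0.37 on the log2 scale from resting to mature Cd8 cells (adjusted p by edgeR = 0.0013). Trbv20 held 3.31%, 8.33% and 10.3% in mature Cd4 cells and 4.52%, 1% and 4.44% in mature Cd8 cells, and Trbv29 held 3.31%, 0% and 4.31%, then 7.10%, 11% and 5.19%. The mature stages overlapped for Trbv1, Trbv31 and Trbv20, and not for Trbv29.

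Other genes of the receptor pathway also changed between stages. The pathway list held 30 genes, of which 14 passed the filter; Rag1, which was used to choose the stages, is left out of the counts, leaving 13. From resting to mature Cd4 cells 8 of 13 fell and 1 rose, beside 18.4% and 17.4% of all genes. From resting to mature Cd8 cells 9 fell and 1 rose, beside 22.3% and 23.5%. Trbc1 and Trbc2, the constant regions, fell by 1.29 ± 0.06 and 1.07 ± 0.06 on the log2 scale in mature Cd4 cells, while Trac, the alpha constant region, rose by 0.51 ± 0.09 (adjusted p by edgeR of 7.4e-10, 4.5e-09 and 0.00030). Dntt, which adds bases at the junctions, fell by 5.01 in mature Cd4 cells, and Ptcra, the surrogate alpha chain, fell by 4.23. From cycling to resting cells 11 of the 13 rose, beside 33.4% of all genes, and Ptcra fell by 0.88. Per 100 Trbc UMIs there were 2.52, 2.13 and 2.28 Trbv UMIs in resting cells and 4.22, 3.15 and 2.90 in mature Cd4 cells. Mature Cd8 cells had 2.90, 1.96 and 2.16, above resting cells in p53+/- and below them in p53 AD/- and p53-/-.

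Between the libraries, shares of Trbv UMIs in resting cells differed by less than 2-fold for every member with at least 100 UMIs in a pair. The p53-/- to p53+/- ratio of shares was highest for Trbv26, at 1.79 (95% interval on the log2 scale 0.39 to 1.30), from 3.40% and 1.90%. In cycling cells of the same libraries it held 5.92% and 2.98%. For p53 AD/- over p53-/-, Trbv12-2 was highest at 1.495 (log2 0.26 to 0.90), from 8.10% and 5.42%, and in cycling cells it held 8.83% and 5.004%. Trbv1 followed in that pair with 4.95% and 3.50%. Trbv20 was lowest, with 3.44% and 4.88%, before Trbv2 with 15.4% and 20.3%. For p53 AD/- over p53+/-, Trbv5 was highest at 1.63, from 2.38% and 1.46%. Intervals excluded equal shares for 4 of 16, 3 of 18 and 4 of 19 members in these pairs (p53 AD/- over p53-/-, then p53 AD/- over p53+/-, then p53-/- over p53+/-). By level, 2 of 16, 1 of 18 and 1 of 19 members were over 1.5-fold higher, where 5.34%, 6.45% and 5.14% of all genes were, and 0, 0 and 1 were over 1.5-fold lower, where 18.2%, 11.8% and 1.61% of all genes were. These intervals cover counting error alone, and with 1 library per genotype a difference between libraries and one between genotypes cannot be told apart.

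Of the remaining members picked by the same rule, some had intervals that reached equal shares. In p53 AD/- over p53-/- these were Trbv26, with 2.62% and 3.40%, and Trbv13-2, with 10.3% and 8.73%. In p53 AD/- over p53+/- they were Trbv29 with 3.93% and 5.10%, Trbv14 with 1.80% and 2.04%, and Trbv26 with 2.62% and 1.90%. Trbv12-2 with 8.10% and 6.20% and Trbv2 with 15.4% and 18.1% had intervals that excluded equal shares in that pair, but by cells with a single Trbv gene Trbv2 stood at 13.6% and 13.3%. In p53-/- over p53+/- they were Trbv14 with 1.39% and 2.04%, and Trbv17 with 1.48% and 1.90%. Trbv13-2 with 8.73% and 11.2%, Trbv2 with 20.3% and 18.1%, and Trbv20 with 4.88% and 3.55% had intervals that excluded equal shares.

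Cells with more than 1 Trbv gene were a minority of those with any. They made up 28.6%, 26.8% and 21.3% of cycling cells with a Trbv UMI, 17.4%, 16.6% and 14.1% of such resting cells, 17.1%, 8.57% and 9.09% of mature Cd4 cells and 12.5%, 12.9% and 8.70% of mature Cd8 cells. Cells were not thinned for these shares, so the stages cannot be compared by them. Median depth was 13491, 11500 and 11598.5 UMIs in cycling cells and 2822, 2067 and 2407 in resting cells. In resting cells, 106 pairs of members had an expected number of at least 5 cells from the product of their shares. They were seen together in 1153 cells where the product gives 1546, a ratio of 0.75. The ratio was 1.23 for the 17 pairs up to 20 kb apart (266 cells against 216), 0.70 for pairs 20 to 100 kb apart and 0.69 for pairs farther apart. Cycling cells gave 1.13, 0.58 and 0.59. These sums weigh pairs by their cells: of the 17 near pairs 8 were above 1, and their median ratio was 0.97, against medians of 0.53 and 0.64 for the pairs farther apart. Trbv12-2 and Trbv13-2, neighbours 2.03 kb apart with 57.0% identity, shared 58 cells where the product gives 29.6, with 20, 18 and 20 cells in the 3 libraries. Trbv15 and Trbv16, 10.1 kb apart and 69.5% identical, shared 18 against 8.36. Trbv2 and Trbv3, 294 bases apart, shared 32 against 24.3. These counts are a description: a second rearranged allele, 2 cells in 1 droplet, reads that run from 1 V gene into the next and free RNA were not tested.

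**Figure D5:**
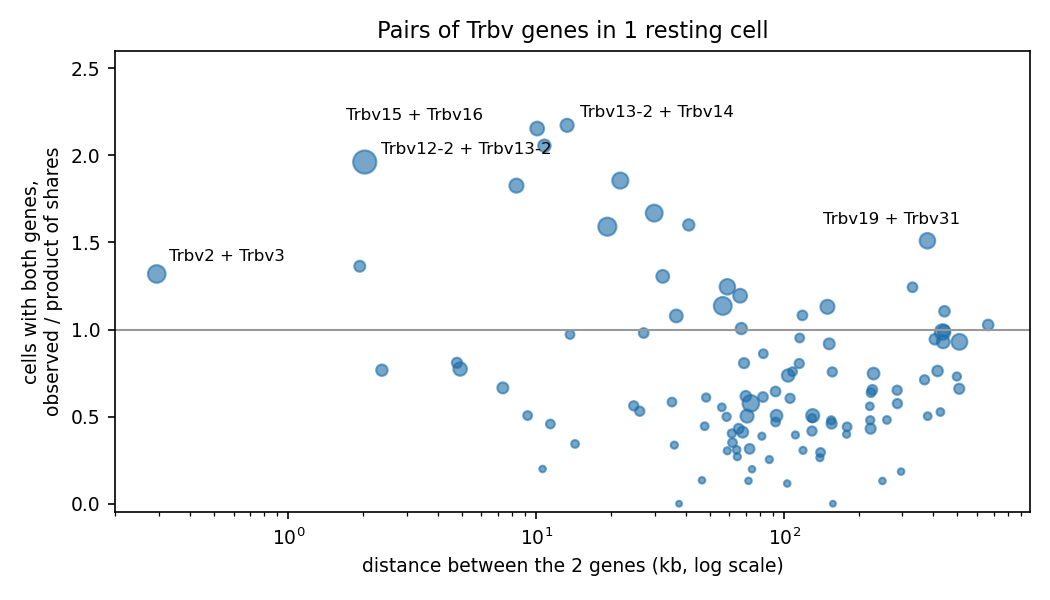
Cells with both genes of a pair relative to the product of their shares (vertical axis, 1 marked by the line) against the distance between the genes (horizontal axis, kb, log scale) for 106 pairs in resting cells, with larger points for more cells. Pairs up to 20 kb apart reach 2.17, and most pairs farther apart lie below 1.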

How the data were processed

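The deposited values were raw UMI counts per gene and barcode, made by the authors on GRCm38 per the submitters' processing notes. The tool was Cell Ranger 4.0.0, per the file headers. Chemistry, annotation and strand use: not given in the sources used here. Genotypes came from the labels, and nothing shows how many mice a library held. Cells were filtered and staged by the thresholds in the report (1 gene of the maturation list and 1 of the non-T markers are not reported here), and UMIs were summed per library and stage. edgeR 4.0.16 (R 4.3.3) with TMM and filterByExpr fitted all genes, called at an adjusted p of 0.05; the SE is the log2 fold change divided by the root of F. The script was tested on simulated data. Shares have exact Clopper-Pearson 95% intervals and ratios exact conditional binomial ones; like the floor of 3 UMIs they cover counting error only, and UMIs of 1 cell are not independent. Thinned shares are hypergeometric expectations. The block rests on the library: the stages of 1 library come from the same mouse or mice, so the sums are paired. Named were members called in any stage contrast, the 5 highest in resting cells, the superantigen-family list, Trbv1, Trbv31, and per pair of libraries the 3 highest and 3 lowest share ratios. Members and lists were chosen with earlier results of these data known. V gene ends and positions came from GENCODE M21. DESeq2 1.42.0, other normalizations, filters and thresholds were alternatives.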

Additional observations from a re-analysis of the deposited data

How the results depend on the processing

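Mature stages rest on 297 and 390 Trbv UMIs, which limits every share there. Leaving out cells with non-T marker UMIs and setting library sizes to summed Trbv UMIs were chosen after the data were seen. The share of all genes called under each alternative is not given here. The counts of members below therefore cannot be read against it. Members called lower in mature Cd4 than in resting cells numbered 5, and 8 with library totals, 10 with no filter on low counts and 3 to 5 with 1 library left out. Members called lower in mature Cd8 than in resting cells numbered 10 and from 8 to 9 with 1 library left out. Members called higher in resting than in cycling cells numbered 11, and 7 without cells of over 1 Trbv gene, 5 with no replicate block and 4 to 9 with 1 library left out. The replicate block (the library) moved no other count of members by over 1.5 times. Between the mature lineages, members called higher numbered 1 with mature cells at 1 UMI, without cells of non-T marker UMIs and with no filter, and members called lower numbered 1 with cycling cells at 5 UMIs, without cells of non-T marker UMIs and with library totals, and 2 with mature cells at 1 UMI, with no filter and with DESeq2. With summed Trbv UMIs as library size, members called higher and lower were 1 and 4 (mature Cd4 over resting), 2 and 2 (mature Cd8 over resting), 2 and 0 (mature Cd8 over mature Cd4) and 0 and 0 (resting over cycling), and the log2 fold change turned to 0.018 for Trbv13-2 in mature Cd8 over resting cells and to -0.16 for Trbv3, -0.052 for Trbv13-1, -0.18 for Trbv19 and -0.025 for Trbv29 in resting over cycling cells, since this scaling sets the members against their own sum.

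The superantigen-family share among cells with exactly 1 Trbv gene and at least 2 of its UMIs was 31.7% in cycling p53 AD/- cells, 16.7%, 11.2% and 19.7% in resting cells, 0%, 16.7% and 0% in mature Cd4 cells, and 5.26%, 0% and 9.52% in mature Cd8 cells. Among cells with exactly 1 Trbv gene it was 29.2% in cycling p53 AD/- cells. Without cells of over 1 Trbv gene it was 18.6% in cycling p53+/- cells, 21.5% in resting and 6.41% in mature Cd8 p53 AD/- cells. Cells with a Trbv UMI, thinned to 1500 UMIs, were 16.5%, 16.3% and 16.4% of cycling, 27.2%, 29.4% and 25.5% of resting, 20.9%, 16.9% and 14.3% of mature Cd4 and 17.5%, 13.0% and 12.2% of mature Cd8 cells. Thinned to 1000 UMIs they were 11.4%, 11.4% and 11.5%, then 19.5%, 20.9% and 18.2%, then 14.6%, 11.8% and 9.88%, and 12.2%, 9.05% and 8.43%. With cycling cells at 1 UMI they were 58.7%, 55.3% and 55.0% of cycling cells. With at least 1000 genes they were 46.3%, 45.1% and 41.9% of resting cells, and 46.3% of p53+/- resting cells with under 5% mitochondrial UMIs. By cells with exactly 1 Trbv gene, the log2 share ratio of Trbv2 in resting cells was 0.030 for p53 AD/- over p53+/- and -0.19 for p53 AD/- over p53-/-. Causes of these changes were not tested.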

Other observations

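Cells with at least 2 UMIs of Zbtb16, the transcription factor of innate-like T cells, numbered 19, 14 and 69 in p53+/-, p53 AD/- and p53-/-, at median depths of 18810, 14360.5 and 12967 UMIs. They held 9, 6 and 49 Trbv UMIs. In p53-/-, Trbv1 gave 21 of the 49, from 13 cells, Trbv13-2 gave 8 from 5 cells, and the superantigen-family list gave none. In p53+/- and p53 AD/-, Trbv13-2 gave 5 of 9 and 3 of 6, and Trbv1 gave none. These cells were picked after their values were seen, and no test was made.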
